A study of Mus musculus with 6 samples.

Results

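Immunoglobulin variable (V) segments are the germline gene pieces that encode most of the antigen-binding face of an antibody. They were taken as all genes of the spleen count table whose symbols begin with Ighv, Igkv or Iglv and whose counts sum to 20 or more over the 6 libraries. This left 230 segments of 286 such genes, within a table of 31771 genes. They comprised 114 heavy chain segments (Ighv, chromosome 12), 113 kappa light chain segments (Igkv, chromosome 6) and 3 lambda light chain segments (Iglv, chromosome 16). Ighv2-7 and Ighv1-62, with 21 counts each, lay just inside the minimum, and Ighv1-21-1 with 18 counts and Ighv5-21 with 17 counts lay just outside it. Of the 230, the annotation types 29 as pseudogenes.

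The RNA came from pieces of spleen of mice labelled as strain C57BL/6, 3 mutants and 3 wild-type (WT) controls. The mutants carried VEC-Cre, SB Transposase and onc2 together. VEC-Cre is Cre recombinase under the promoter of VE-cadherin, an endothelial adhesion molecule. Because blood stem cells form from endothelium in the embryo, such Cre also marks blood cells, B cells included. Sleeping Beauty (SB) is a transposon system whose onc2 element can activate or break genes where it lands, and the comparison addressed which cells make up the spleens of such mice. The labels used here state neither age nor litter. The p-values of single genes set the difference between groups against the spread between these animals within groups. Those of the permutation tests give the share of all divisions of the animals into 3 and 3 with a difference at least as large.

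In a developing B cell, one V segment of the heavy chain locus is joined to a D and a J segment, and one V segment of a light chain locus is joined to a J segment. The joined segment is transcribed with a constant region, so each mature B cell or plasma cell carries transcripts of few V segments. A spleen with many B-cell clones therefore shows many segments at low shares each, while a few expanded clones give a few segments high shares. Plasma cells, which secrete antibody, hold far more immunoglobulin RNA per cell than resting B cells.

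The sequences below belong to the segments on which the results turn, and are germline sequences of GENCODE M21 on GRCm38, 5′ to 3′. Iglv1 and Iglv2 are the nearest pair of lambda segments. Their V exons are 305 bases long and differ at 9 bases (identity 97.0%). The first 300 bases, on the minus strand at chr16:19085022-19085321 and chr16:19260406-19260705, hold all 9, which are in capitals.
Iglv1: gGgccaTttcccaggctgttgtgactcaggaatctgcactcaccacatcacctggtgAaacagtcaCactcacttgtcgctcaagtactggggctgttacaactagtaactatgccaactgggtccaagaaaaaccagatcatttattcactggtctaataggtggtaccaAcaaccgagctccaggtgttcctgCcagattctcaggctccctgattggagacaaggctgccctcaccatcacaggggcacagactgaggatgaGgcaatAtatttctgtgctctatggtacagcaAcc
Iglv2: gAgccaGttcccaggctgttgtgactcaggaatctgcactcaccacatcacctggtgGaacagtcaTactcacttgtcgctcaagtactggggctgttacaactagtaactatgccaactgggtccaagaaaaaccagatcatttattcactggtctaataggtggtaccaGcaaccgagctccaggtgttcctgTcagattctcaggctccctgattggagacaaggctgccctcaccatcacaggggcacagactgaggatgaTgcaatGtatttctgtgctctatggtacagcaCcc
The next set gives the last 60 bases of the V exon of every segment that led the heavy chain or kappa usage of a library. Ighv5-9-1, Ighv1-9 and Igkv3-4, which did not lead, are added because their levels or shares are described below. The capitals mark the last in-frame cysteine codon, after which the variable part formed by joining begins.
Ighv1-81: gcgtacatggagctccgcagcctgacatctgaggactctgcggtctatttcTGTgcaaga
Ighv6-3: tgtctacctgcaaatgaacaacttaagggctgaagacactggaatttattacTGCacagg
Ighv5-9-1: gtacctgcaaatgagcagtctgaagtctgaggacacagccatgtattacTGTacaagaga
Ighv1-64: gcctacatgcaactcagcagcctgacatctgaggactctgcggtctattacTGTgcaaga
Ighv14-4: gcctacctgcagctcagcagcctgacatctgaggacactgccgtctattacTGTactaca
Ighv1-9: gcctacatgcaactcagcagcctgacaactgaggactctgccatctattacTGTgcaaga
Ighv3-6: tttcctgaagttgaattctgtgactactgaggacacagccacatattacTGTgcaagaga
Igkv1-110: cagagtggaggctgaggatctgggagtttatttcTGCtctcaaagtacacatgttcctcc
Igkv5-39: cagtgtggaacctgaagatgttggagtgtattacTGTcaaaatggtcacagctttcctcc
Igkv6-32: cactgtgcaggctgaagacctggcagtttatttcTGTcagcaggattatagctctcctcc
Igkv12-46: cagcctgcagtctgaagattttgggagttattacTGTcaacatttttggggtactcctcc
Igkv3-4: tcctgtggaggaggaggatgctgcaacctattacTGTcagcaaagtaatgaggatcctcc
The heavy chain sequences lie on the minus strand of chromosome 12, that of Ighv14-4 for instance at chr12:114176438-114176497. Igkv1-110 and Igkv3-4 lie on the plus strand, at chr6:68271208-68271267 and chr6:70672318-70672377. Igkv5-39, Igkv6-32 and Igkv12-46 lie on the minus strand of the same chromosome, at chr6:69900424-69900483, chr6:70074024-70074083 and chr6:69764523-69764582. Over all 230 segments, the V exon of a segment and that of its nearest relative in the same locus were identical at a median of 94.5% of bases, and 110 segments had a relative at 95% or more. Ighv1-62-2 and Ighv1-71 have identical V exons. How the authors' counting assigned reads shared between segments is not stated, so values of single segments with near relatives are uncertain.

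Libraries held 72902118 to 79258116 counts. Levels are given in CPM, counts per 1000000 counts of the library. The segments were checked beside genes of fixed lists of cell types. Mature B-cell genes summed to 6842 to 7836 CPM in controls and 179 to 250 CPM in mutants, T-cell genes other than Lat to 516 to 645 and 20.4 to 99.3 CPM, and haemoglobin and other erythroid genes to 71045 to 111770 and 2359 to 59187 CPM. Lat, a T-cell adaptor gene of the same list, was at 559 CPM in mutant 3, above the 112 to 149.8 CPM of controls. In mutants 1 and 2 it stood at 19.6 and 34.6 CPM, and with it the 8 T-cell genes of mutant 3 sum to 579 CPM. The groups also differed in sex: Xist, the RNA that coats the silenced X chromosome, was at 1513 and 580 CPM in mutants 1 and 2 and at 0.423 to 0.663 CPM in the other 4 libraries. What part the sex of the animals, or any difference in genetic background between them, had in the results was not tested. In RNA from whole tissue, fewer cells of a type and less RNA per cell cannot be told apart.

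V segment RNA was lower in every mutant spleen than in every control spleen, at all 3 loci, and the mutants differed widely from each other. Heavy chain segments summed to 1144, 1011 and 918 CPM in controls 1, 2 and 3, and to 24.5, 227 and 100.2 CPM in mutants 1, 2 and 3. Kappa segments summed to 2178, 1896 and 1957 CPM in controls and to 72.9, 483 and 217 CPM in mutants. Lambda segments summed to 191, 245 and 199 CPM in controls and to 3.42, 88.1 and 6.01 CPM in mutants. Mutant 1 was the lowest and mutant 2 the highest mutant at each locus, and no mutant value reached a control value. Together V segments took 0.325 ± 0.0234% of all counts in controls and 0.0407 ± 0.0356% in mutants (mean ± SD, n = 3). The exact 2-sided permutation p was 0.1, the smallest that 3 against 3 allows (0.28 after adjustment over 14 such tests). The mean of controls was 32.2 times the level in mutant 1, 4.07 times that in mutant 2 and 10.0 times that in mutant 3.

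**Figure D1:**
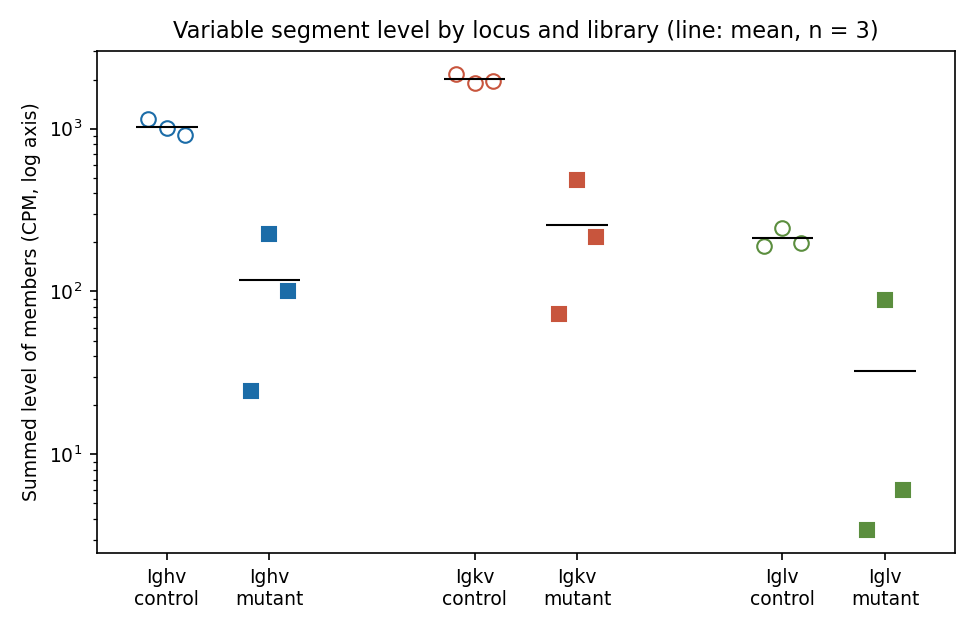
Summed level of V segments in CPM on a log axis, by locus and group. Each point is 1 library (open circles, controls; filled squares, mutants) and the line is the mean of 3 libraries; the heavy chain values are 918 to 1144 CPM in controls and 24.5 to 227 CPM in mutants.

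Most single segments were lower in the mutants, and none passed as higher. Of the 230 segments, 205 passed the filter on low counts and were tested across all 19573 genes by edgeR's quasi-likelihood test, with Benjamini-Hochberg adjustment at 0.05. Of these, 111 fell (54.1%), against a background of 6.90% of all genes tested that passed as lower. None rose by edgeR, 0 at an unadjusted p under 0.05 as well, while 5.08% of all genes passed as higher. DESeq2 called 1 segment higher, Ighv4-2. The median log2 fold change was -3.89 over the 205 segments and 0.10 over all genes tested. Among the tested segments 9 were at 0 in all mutants, and with these set at the bound that 3 counts over the mutants give, the median was -3.86. In 170 of the 205, all mutants lay below all controls, an arrangement found in 22.6% of all genes tested. By locus, 50 of 100 heavy chain segments, 59 of 102 kappa segments and 2 of 3 lambda segments fell.

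Leaving out a control lowered the number of segments that passed, as it did for all genes. Without control 1, 2 or 3 it was 15, 13 and 17, when 0.636, 0.581 and 0.627% of all genes tested passed as lower. There were 13 segments that fell in the test of all libraries and with each library left out in turn. These were Ighv1-52, Ighv1-58, Ighv4-1, Igkv12-89, Igkv14-111, Igkv2-109, Igkv2-112, Igkv4-50, Igkv4-61, Igkv5-48, Igkv9-120, Iglv2 and Iglv3. With a variance for each group, limma-voom called 23 segments and 3.89% of all genes lower.

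**Figure D2:**
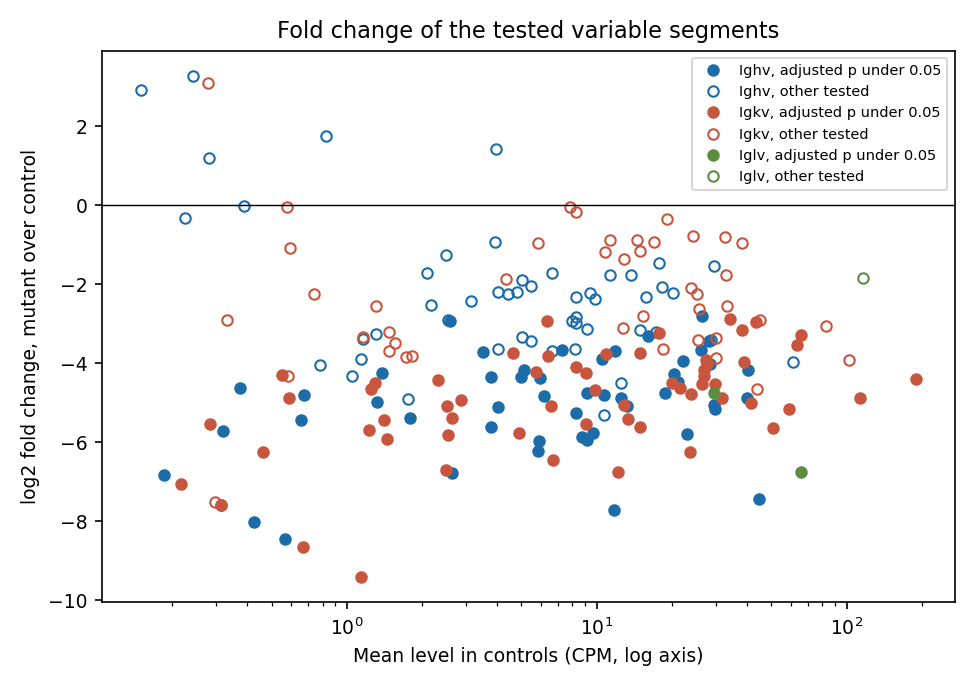
Log2 fold change of mutant over control against the mean level in controls (CPM, log axis) for the 205 tested segments. Filled points have an adjusted p under 0.05 by edgeR; all 111 lie below 0, and values of the 9 segments at 0 in all mutants are fitted values, not bounds.

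At the heavy chain locus, the segments most abundant in controls belonged to several families. Ighv1-81 (ENSMUSG00000094689, chromosome 12, 115920279 to 115920712, minus strand) was at 75.7, 70.5 and 37.5 CPM in controls 1, 2 and 3 and at 0.329, 10.2 and 0.677 CPM in mutants 1, 2 and 3. Every mutant lay below every control, yet the spread among mutants left its adjusted p at 0.116 (log2 -3.96 ± 1.39 SE, edgeR). Ighv5-9-1 (ENSMUSG00000095210, chromosome 12, 113736111 to 113736630, minus strand), of a family close to the J cluster, was at 71.1, 50.4 and 11.9 CPM in controls. In the mutants it was at 0.288, 0.282 and 0.195 CPM, and it fell by 7.44 ± 0.84 on the log2 scale (adjusted p = 0.00852, edgeR). Without control 2 Ighv5-9-1 no longer passed. Control 3 stood apart from the other controls in both segments.

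Ighv1-26 fell from 40.5 ± 6.14 to 2.20 ± 1.12 CPM (log2 -4.18 ± 0.50, adjusted p = 0.00949, edgeR). Its V exon is 97.4% identical to that of Ighv1-18. Ighv6-3 fell from 40.1 ± 5.03 to 1.37 ± 1.44 CPM (log2 -4.89 ± 0.81, adjusted p = 0.0194, edgeR), and Ighv2-2, 98.0% identical to Ighv2-4, fell from 29.7 ± 13.9 to 0.805 ± 0.546 CPM (log2 -5.15 ± 0.73, adjusted p = 0.0142, edgeR). Ighv1-47 was at 26.4, 7.07 and 1.73 CPM in controls, against 0.0137, 0.134 and 0.0130 CPM in mutants. It fell by 7.70 ± 1.58 on the log2 scale (adjusted p = 0.0323, edgeR) while its controls themselves ranged from 1.73 to 26.4 CPM. These 4 segments lost their call when any 1 control was left out, and Ighv1-47 also without mutant 1 or mutant 3.

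At the kappa locus, Igkv1-110 (ENSMUSG00000093861, chromosome 6, 68270485 to 68271267, plus strand) had the highest mean level of all V segments in the control spleens, at 232, 188 and 149.7 CPM, though Igkv5-39 was above it in control 3. It was at 2.47, 15.6 and 8.26 CPM in mutants 1, 2 and 3, and fell by 4.40 ± 0.74 on the log2 scale (adjusted p = 0.0204, edgeR). Igkv1-117, whose V exon is 96.8% identical to it, fell from 114 ± 16.7 to 3.74 ± 2.13 CPM (log2 -4.89 ± 0.52, adjusted p = 0.00745, edgeR). Igkv1-110 lost its call when any 1 control was left out or without mutant 3, and Igkv1-117 without control 1 or control 2. Igkv5-39 had the largest SD among controls of all V segments in CPM, at 108, 37.7 and 162 CPM, and was at 1.85, 16 and 1.37 CPM in mutants (adjusted p = 0.0845, edgeR). Igkv6-15 was at 60.3, 80.2 and 108.5 CPM in controls, against 0.741, 12.2 and 16.4 CPM in mutants (adjusted p = 0.10, edgeR). In all of these segments the groups did not overlap.

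The kappa segments with the smallest p were those in which the mutants resembled each other. Igkv9-120 was at 80.2, 44.8 and 51.8 CPM in controls, against 1.55, 1.75 and 1.58 CPM in mutants (log2 -5.17 ± 0.33, adjusted p = 0.00153, edgeR). Igkv14-111 was at 33.1, 35.6 and 48.6 CPM in controls, against 3.05, 2.38 and 2.03 CPM in mutants (log2 -3.96 ± 0.28, adjusted p = 0.00220, edgeR). Igkv12-89 fell from 12.2 ± 2.99 to 0.111 ± 0.0446 CPM (log2 -6.76 ± 0.50, adjusted p = 0.00237, edgeR). Igkv10-96 and Igkv1-135 also fell, by 3.53 ± 0.42 and 3.28 ± 0.69 on the log2 scale (adjusted p = 0.00944 and 0.0346, edgeR), and both lost their call when any 1 control was left out, Igkv1-135 also without mutant 3. Igkv4-60, a pseudogene named after its values were seen, held 265 counts over the controls and 0 over the mutants, at least 85.6-fold lower with a floor of 3 counts over the mutants.

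Of the 3 lambda segments, Iglv2 and Iglv3 fell and Iglv1 did not pass. Iglv2 (ENSMUSG00000076940, chromosome 16, 19260401 to 19260859, minus strand) was at 57.9, 62.8 and 77.2 CPM in controls, against 0.439, 0.941 and 0.417 CPM in mutants. It fell by 6.74 ± 0.49 on the log2 scale (adjusted p = 0.00233, edgeR). Iglv3 fell from 29.5 ± 2.66 to 1.09 ± 0.216 CPM (log2 -4.75 ± 0.26, adjusted p = 0.00111, edgeR). Iglv1 (ENSMUSG00000076934, chromosome 16, 19085017 to 19085500, minus strand) was at 106, 153 and 89.6 CPM in controls, against 1.73, 86.3 and 4.40 CPM in mutants 1, 2 and 3. Its level in mutant 2 came close to that of control 3, and its adjusted p was 0.415 (edgeR).

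Within the lambda counts, Iglv1 held 55.4, 62.6 and 45.0% in controls and 50.6, 98.0 and 73.3% in mutants. In mutant 2, Iglv1 had 6420 counts and its near copy Iglv2, printed above, had 70. The exact 95% binomial interval of the Iglv1 share was 97.6 to 98.3% in mutant 2 and, on 249 lambda counts, 44.2 to 57.0% in mutant 1. Intervals cover counting error only, since reads of amplified libraries are not independent molecules. The constant segment Iglc1, which lies beside the J segment that Iglv1 usually joins, held 91.7% of the counts on Iglc1, Iglc2 and Iglc3 in mutant 2. Its share was 22.3 and 53.7% in mutants 1 and 3 and 22.8 to 32.0% in controls. The Iglv1 share did not separate the groups (54.3 ± 8.86% in controls, 74.0 ± 23.7% in mutants, exact permutation p = 0.3, n = 3).

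Usage, the share of a locus's V counts on each segment, was more concentrated in the mutants. The effective number of segments (inverse Simpson index, the number of equally used segments that would give the same concentration) was corrected for counting depth. At the heavy chain locus it was 38.9, 42.0 and 45.7 in controls and 23.9, 19.0 and 26.6 in mutants 1, 2 and 3. At the kappa locus it was 32.8, 34.1 and 32.7 in controls and 20.9, 24.3 and 24.5 in mutants. The groups did not overlap at either locus (42.2 ± 3.43 against 23.2 ± 3.83 and 33.2 ± 0.774 against 23.3 ± 2.02). Each exact 2-sided permutation p was 0.1, the smallest possible with n = 3, and 0.28 after adjustment.

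The groups kept their order at equal depth in V counts. This does not equalise the number of cells behind the counts, which was not measured. At 1788 heavy chain counts, the total of mutant 1, the expected number of segments with a count was 91.0 to 94.6 in controls and 84.7 to 86.6 in mutants. At 5313 kappa counts it was 97.5 to 101.9 in controls and 78.5 to 84.0 in mutants. Among all 230 segments, 226 to 230 had a count in each control, against 173, 196 and 188 in mutants 1, 2 and 3. These detection numbers were not taken at equal depth. The minimum summed count for a segment was reached mostly on control counts, which favours detection in controls. Of the segments, 21 were at 0 in all mutants and 0 were at 0 in all controls. The numbers at equal depth rest on the same set of segments and share this limit. The 5 leading heavy chain segments of a library together held 23.2 ± 1.51% of its heavy chain V counts in controls and 38.7 ± 3.95% in mutants. For kappa these were 28.6 ± 1.29% and 36.2 ± 2.42%. The exons of the 201 segments that are not pseudogenes run from 338 to 480 bases in total, and when shares were taken per exon length the same segment led in 17 of the 18 combinations of library and locus.

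**Figure D3:**
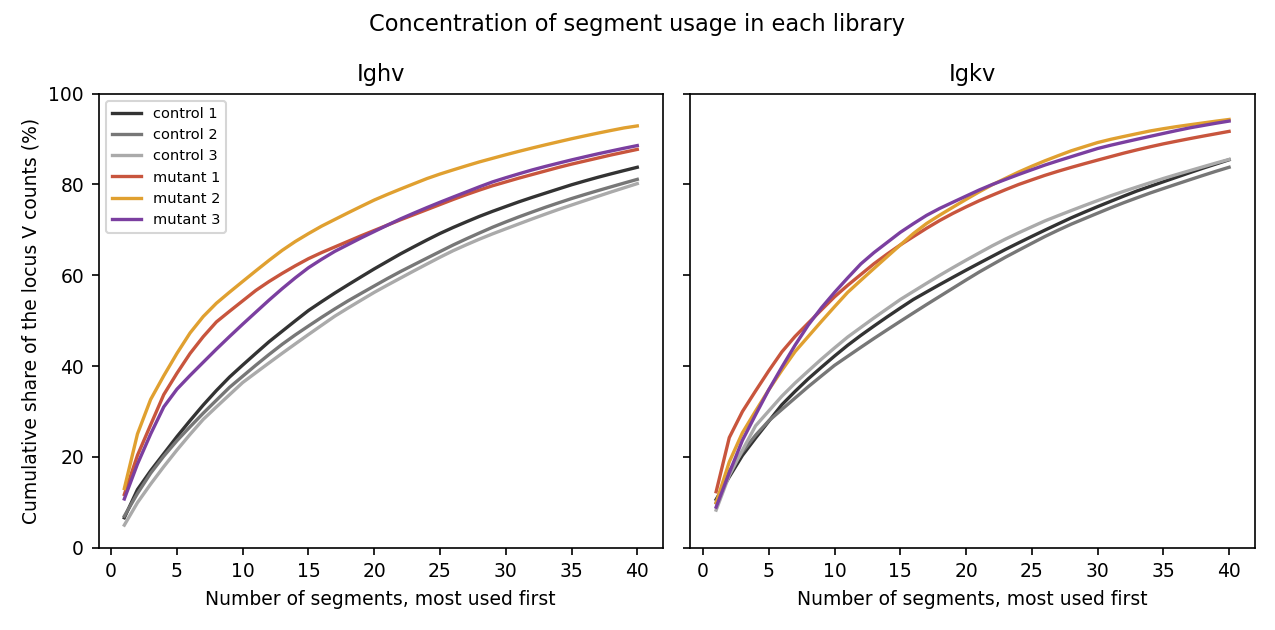
Cumulative share of the heavy chain (left) and kappa (right) V counts held by the most used segments, in percent, against the number of segments. Each line is 1 library; at 5 segments the heavy chain curves lie at 21.5 to 24.5% in controls and at 34.9 to 42.8% in mutants.

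Each mutant had its own leading heavy chain segment. In mutant 1 this was Ighv1-64, with 11.7% of heavy chain counts (exact 95% interval 10.3 to 13.3%), against 1.56 ± 0.273% in controls, followed by Ighv1-82 with 8.61% against 2.63 ± 1.07%. In mutant 2 it was Ighv14-4, with 13.1% (12.5 to 13.6%), against 0.391 ± 0.0685% in controls and 0.0559 and 0.0390% in mutants 1 and 3. In mutant 3 it was Ighv3-6, with 10.8% (10.1 to 11.5%), against 2.02 ± 0.627% in controls. In controls the leaders were Ighv1-81 with 6.62 and 6.98% in controls 1 and 2, and Ighv6-3 with 5.0% in control 3. The leading share was thus 6.20 ± 1.05% in controls and 11.9 ± 1.15% in mutants, and the groups did not overlap (exact permutation p = 0.1, n = 3, and 0.28 after adjustment).

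Ighv14-4 (ENSMUSG00000076666, chromosome 12, 114176438 to 114176867, minus strand) also stood out by level. It was at 3.98, 3.59 and 4.32 CPM in controls, against 0.0137, 29.6 and 0.0391 CPM in mutants 1, 2 and 3. Mutant 2 was above all controls while the other mutants were far below, and the adjusted p was 0.695 (log2 1.42 ± 2.19, edgeR). Without mutant 2, Ighv14-4 passed as lower (log2 -7.16). Ighv1-9 in mutant 2 showed the same kind of share, 12.0% of heavy chain counts against 2.87 ± 1.08% in controls, at 27.3 CPM within the control range of 16.4 to 40.5 CPM. By level the leaders of mutant 1 were low all the same. Ighv1-64 fell from 16.1 ± 4.41 to 1.62 ± 1.12 CPM (log2 -3.31 ± 0.61, adjusted p = 0.0255, edgeR) and Ighv1-82 from 26.2 ± 7.94 to 2.02 ± 0.835 CPM (log2 -3.66 ± 0.47, adjusted p = 0.0112, edgeR), calls lost when any 1 control was left out. Ighv1-67 was at 0.663 to 0.924 CPM in controls, at 0.0137 and 0.901 CPM in mutants 1 and 2 and at 7.70 CPM in mutant 3 (adjusted p = 0.481, edgeR).

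Leading kappa segments were partly shared between mutants. Igkv6-32 led in mutant 1 with 12.3% (exact 95% interval 11.5 to 13.3%) and in mutant 3 with 8.96% (8.53 to 9.40%), but held 0.287% in mutant 2 and 1.67 ± 0.666% in controls. Igkv3-4 held 11.9, 4.78 and 5.62% in mutants 1, 2 and 3, above the 0.643 to 1.39% of controls in every mutant. By level it was at 30.3, 14.7 and 12.6 CPM in controls, against 8.68, 23.1 and 12.2 CPM in mutants, so that its groups overlapped (log2 -0.36 ± 0.53, adjusted p = 0.684, edgeR). Mutant 2 was led by Igkv12-46 with 9.92% and Igkv12-44 with 8.99%, against 1.61 ± 0.560% for Igkv12-46 in controls. The leading kappa share did not separate the groups, at 9.61 ± 1.20% in controls and 10.4 ± 1.75% in mutants (exact permutation p = 0.6, n = 3).

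**Figure D4:**
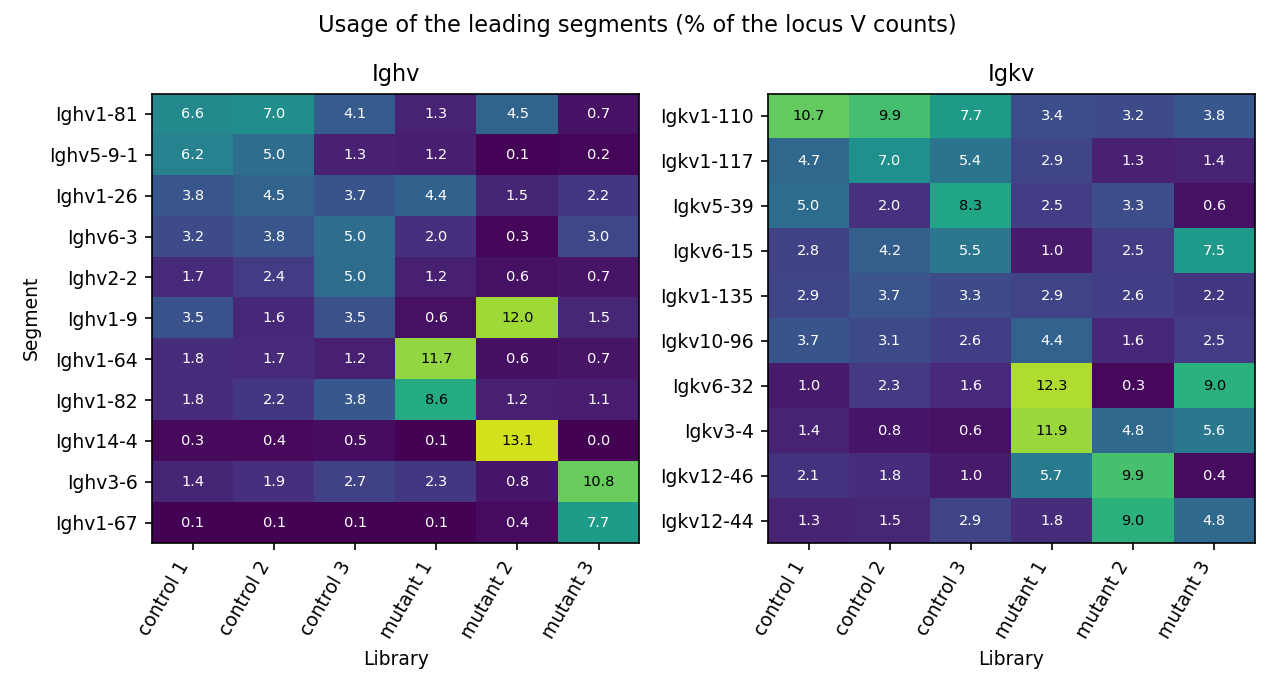
Share of the locus V counts, in percent, for the heavy chain (left) and kappa (right) segments that were most abundant in controls or led in a mutant; rows are segments, columns are libraries, and the printed value is the share. Ighv14-4 stands at 13.1% in mutant 2 and at 0.0390 to 0.470% in the other 5 libraries, while Igkv3-4 is above the controls in all 3 mutants.

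The make-up of usage differed more between mutants than between controls. The share of heavy chain usage that would have to move from one segment to another to turn one library into the next lay at 20.3 to 27.4% for pairs of controls and at 56.6 to 66.8% for pairs of mutants. A mutant and a control differed by 39.4 to 56.3%. For kappa these ranges were 19.1 to 22.5%, 41.8 to 48.7% and 39.99 to 53.3%. At the heavy chain locus every pair of mutants differed more than any mutant did from any control, narrowly (at least 56.6% against at most 56.3%). These differences were not corrected for depth, and mutant 1 had only 1788 heavy chain counts.

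Kappa usage in all 3 mutants lay closer to the J cluster than in controls, a measure added after the data were seen. Segments nearer to the J cluster than the median kappa segment (1479 kb) held 47.0, 48.1 and 52.6% of kappa counts in controls and 65.3, 69.7 and 68.2% in mutants 1, 2 and 3. The means were 49.3 ± 2.95% and 67.7 ± 2.27%, with no overlap (exact 2-sided permutation p = 0.1, n = 3, and 0.28 after adjustment). The distance that held 50% of kappa counts was 1812, 1705 and 1305 kb in controls and 899, 958 and 822 kb in mutants. With each library left out in turn the difference in share stayed between 17.4 and 20.2 percentage points. Heavy chain usage did not separate in this way, at 46.3 to 51.8% in controls and 41.1, 67.6 and 58.2% in mutants 1, 2 and 3 (exact permutation p = 0.5, n = 3).

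**Figure D5:**
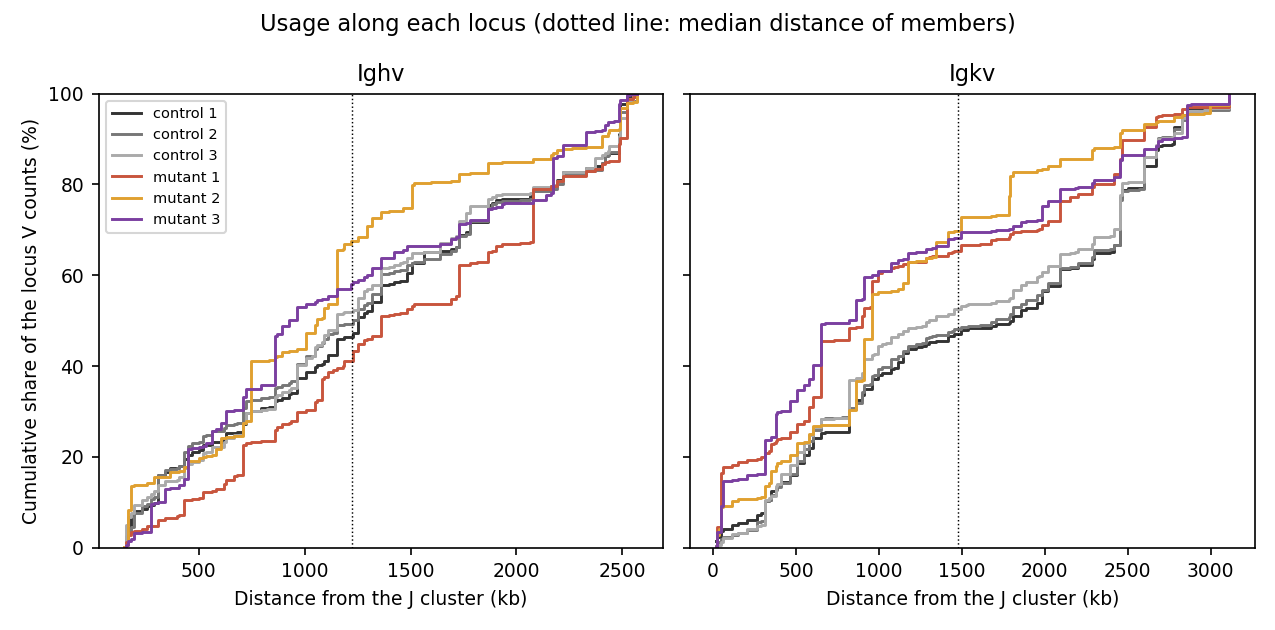
Cumulative share of V counts, in percent, against distance from the J cluster in kb for heavy chain (left) and kappa (right) segments, with 1 line for each library and a dotted line at the median distance of the segments. At the dotted line the kappa curves stand at 47.0 to 52.6% in controls and 65.3 to 69.7% in mutants.

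Shares of whole kappa families are given as a description, with no test. The Igkv3 family, 8 segments between 18.4 and 204 kb from the J cluster, held 6.06, 3.89 and 4.25% of kappa counts in controls and 19.4, 10.8 and 16.1% in mutants 1, 2 and 3. The Igkv1 family, 10 segments between 1860 and 3112 kb from it, held 19.9, 21.9 and 18.2% in controls and 9.60, 9.14 and 8.76% in mutants. The Igkv9 family, also far from the J cluster, held 5.19 ± 2.17% and 1.61 ± 0.717%. Of the 20 kappa families 2 were above all controls in each mutant, Igkv3 and Igkv12, and 4 were below, Igkv1, Igkv9, Igkv16 and Igkv20. Igkv20 is 1 segment, at 0.00322 to 0.0129% in controls and at 0 in the mutants, which had fewer kappa counts. The Igkv12 family, 779 to 2151 kb from the J cluster, held 5.47 to 6.03% in controls and 8.83, 25.4 and 9.76% in mutants. The other 14 overlapped, among them Igkv6 and Igkv8, whose nearest segments lie 265 and 335 kb from the J cluster. Igkv6 held 10.0 to 13.4% in controls and 17.8, 7.98 and 20.5% in mutants, and Igkv8 held 9.26 to 12.5% and 8.49, 8.30 and 12.7%. At the other loci, 14 of 15 heavy chain families and 2 of 3 lambda families overlapped, and 1 at each locus was below. Of 113 kappa segments, 3 had a share above all controls in every mutant (Igkv3-4, Igkv3-2 and Igkv4-72). The share of 34 was below all controls in every mutant. Of 114 heavy chain segments, 2 were above and 26 below. Over all 230 segments, each within its own locus and the kappa segments included, 5 were above (2.17%) and 61 below (26.5%). This total holds the same segments and is no independent background. The minimum of 20 summed counts, reached mostly on control counts, also favours segments that lie below. Of the 34 kappa segments below, 11 were at 0 in all mutants, whose kappa counts numbered 5313 to 35913 against 147778 to 160955 in controls. Of the 26 heavy chain segments below, 7 were at 0 in all mutants.

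At the heavy chain locus the largest family, Ighv1, with 58 segments far from the J cluster, held 50.4 ± 2.81% of heavy chain counts in controls. It held 63.6, 45.9 and 39.4% in mutants 1, 2 and 3, on both sides of the controls (exact permutation p = 1, n = 3). Of its tested members 28 of 50 fell (56.0%), near the 54.1% of all V segments tested, against 6.90% of all genes tested. The Ighv14 family held 14.1% in mutant 2 and the Ighv3 family 14.4% in mutant 3, against 2.36 ± 0.386% and 3.01 ± 0.878% in controls, most of it on Ighv14-4 and on Ighv3-6. Of the 6 tested segments of the Ighv3 family none passed.

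Some segments were above all controls in a mutant. Of the 230, there were 15 such segments in mutant 2, 5 in mutant 3 and 0 in mutant 1. How many of all genes lay so in a single mutant was not counted, so these numbers have no background. Both mutants 2 and 3 were above all controls in 4 segments. These 4 were Ighv3-2, Ighv4-2 and Ighv1-14, which the annotation types as pseudogenes, and Ighv8-11. Ighv3-2 was at 0.149, 0.0770 and 0.505 CPM in controls, against 0, 5.53 and 1.13 CPM in mutants 1, 2 and 3 (log2 3.27 ± 1.84, adjusted p = 0.278, edgeR). Ighv4-2 was at 0.0947, 0.192 and 0.164 CPM in controls, against 0.0686, 2.61 and 0.625 CPM in mutants (log2 2.92 ± 1.24, adjusted p = 0.168, edgeR). Its V exon is 95.8% identical to that of Ighv4-1, whose counts fell. Without mutant 1, Ighv4-2 and Ighv1-14 passed as higher, among 1780 of 20384 genes that did so in that fit. Igkv3-3, a near relative of Igkv3-4, was at 0.202 to 0.338 CPM in controls, at 0 and 0.0261 CPM in mutants 1 and 3 and at 6.74 CPM in mutant 2 (adjusted p = 0.376, edgeR).

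Pseudogenes together held 0.277, 0.422 and 0.390% of V counts in controls and 0.136, 1.4 and 1.09% in mutants 1, 2 and 3. Mutant 1 lay below the controls and the other mutants above them (exact permutation p = 0.4, n = 3). Of the 15 pseudogenes tested, 9 fell.

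The balance of the loci did not separate the groups. Heavy chain segments held 32.6, 32.1 and 29.9% of V counts in controls and 24.3, 28.4 and 31.0% in mutants 1, 2 and 3 (exact permutation p = 0.2, n = 3). Lambda segments held 8.06, 11.4 and 9.25% of light chain V counts in controls and 4.48, 15.4 and 2.69% in mutants, with mutant 2 above the controls and the other mutants below (exact permutation p = 0.7, n = 3). V counts stood at 13.1, 13.4 and 13.4 for every 100 counts on the constant region genes in controls, which spread by only 0.152 (SD). In the mutants the ratio was 9.10, 11.7 and 16.2 (exact permutation p = 0.7, n = 3). Of the 12 constant region genes 8 fell, among them Igkc, the kappa constant gene, at 8250 ± 775 and 1085 ± 890 CPM (log2 -2.88 ± 0.68, adjusted p = 0.0454, edgeR). Igkc lost its call when any 1 control was left out or without mutant 3, and without control 1, 2 or 3 the constant region genes that fell numbered 3, 3 and 4.

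The machinery that joins and diversifies V segments was described from fixed lists. Of 9 tested genes of V(D)J recombination, 1 fell: Rag1, a subunit of the recombinase that cuts beside V segments, at 0.660 ± 0.358 and 0.0487 ± 0.0265 CPM (log2 -3.72 ± 0.69, adjusted p = 0.0256, edgeR). Rag1 lost its call when any 1 control was left out. Rag2, its partner, was at 0 to 0.0404 CPM in all libraries, and Dntt, which adds bases at the joints, was at 1.15 ± 0.484 and 0.631 ± 0.350 CPM (adjusted p = 0.401, edgeR). The list median was 0.15, against 0.10 for all genes tested. Of 6 tested genes of the surrogate light chain and early B cells 5 fell (median -6.27), and 4 when any 1 control was left out. They include Pax5, a transcription factor of B-cell identity, from 785 ± 44.7 to 5.60 ± 2.08 CPM (log2 -7.13 ± 0.37, adjusted p = 0.000843, edgeR), and Vpreb3, from 57.3 ± 8.74 to 0.929 ± 0.242 CPM. Igll1 and Vpreb1, which encode the surrogate light chain of precursor B cells, were at or under 0.691 CPM in all libraries.

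Genes of hypermutation and class switching moved in both directions. Bcl6, a regulator of germinal centres, fell from 78.5 ± 9.64 to 12.7 ± 7.13 CPM. Exo1, a nuclease that also serves DNA repair in dividing cells, rose from 6.22 ± 1.27 to 25.4 ± 4.19 CPM (adjusted p = 0.0114, edgeR). Both lost their call when any 1 control was left out. V promoters carry an octamer motif, and of the 3 listed octamer genes 2 fell: the coactivator Pou2af1, from 358 ± 14.9 to 12.0 ± 5.21 CPM (log2 -4.86 ± 0.41, adjusted p = 0.00379, edgeR), and Pou2f1, by 0.90 ± 0.17 on the log2 scale, a call lost when any 1 control was left out.

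The V segments were set beside genes of resting B cells and of plasma cells. All 11 mature B-cell genes fell (median log2 fold change -6.70), and 7 did so when any 1 control was left out. Of the 11 plasma cell genes 4 fell (median -1.77), with 0 when any 1 control was left out and 8 without mutant 2, and the median of the V segments was -3.89. Jchain, which links antibody units in secreting cells, was at 27.5, 256 and 66.3 CPM in mutants 1, 2 and 3 and at 1014 to 1389 CPM in controls (adjusted p = 0.0626, edgeR), and it passed as lower without mutant 2. It ranked the mutants in the same order as the summed V segments did, as did Mzb1, Prdm1, Irf4, Tnfrsf17 and Slamf7. Sdc1, Xbp1, Derl3, Txndc5 and Fkbp11 of the same list did not. The part of plasma cells in the V counts was not tested.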

How the data were processed

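RNA of 6 spleen pieces was sequenced as stranded poly-A libraries, per the labels' protocols. The authors deposited whole-number counts per Ensembl gene without normalization. Per the submitters' processing notes, STAR 2.5.3a, limma, mm10 and GRCm38 were used, in roles left unstated. Annotation, strandedness and the counting of reads shared between genes: not given in the sources used here. Symbols came by identifier from a name table (31669 of 31771 matched), and types, positions and sequences from GENCODE M21 (GRCm38). Each column name matched 1 sample title, and 0 columns had no sample. Replicate numbers follow accession order.

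The main test was edgeR 4.0.16 (R 4.3.3) with TMM factors, its expression filter by group and robust quasi-likelihood fits over 19573 genes, tested on simulated data. The SE was taken as log2 fold change over root F. CPM use library totals without TMM factors. Alternatives used DESeq2 1.42.0 and limma 3.58.1, other scalings and filters, and each library left out. No pair of libraries of a group agreed within sampling noise (chi-square per segment of 50.1 to 203). Usage measures were compared by exact 2-sided permutation tests, 10 of them planned and 4 added after the data were seen. Named segments were the 6 most abundant in controls at Ighv and Igkv, all Iglv, the 2 leaders of each mutant at each of those loci, the 3 smallest p, the 3 largest falls among called segments with an average log2 CPM of 2 or more, the 3 highest fold changes and those beside the minimum of 20 counts. Others were named after their values were seen. Values of some listed genes are not reported here. Members, lists and tests were chosen with earlier results of these data known. Identity between V exons was computed with Biopython 1.88 by global alignment, over the longer exon.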

Additional observations from a re-analysis of the deposited data

How the results depend on the processing

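The number of segments that fell (111) stayed between 105 and 152 with other scalings, without the expression filter, with DESeq2 (152) and with limma-voom (147). It was 23 by limma-voom with separate variances for the groups, and 13 to 158 with single libraries left out, lowest without control 2 and highest without mutant 2. Calls over all genes moved too: 6.90% were lower in the main test, 3.89% with separate variances, 0.581% without control 2 and 15.3% without mutant 2. The segments that passed as higher numbered 0 in the main test, 1 with DESeq2 (Ighv4-2) and 0 to 2 with single libraries left out. Over all genes tested, 995 passed as higher in the main test, 2841 with DESeq2 and 4 to 2794 with single libraries left out. All 13, 15 or 17 segments called without a control were among the 111. Upper-quartile scaling put the median log2 fold change of all genes at 0.0028 against 0.10 with TMM factors. Effective numbers, the leading heavy chain share, the V share of counts and the kappa share near the J cluster kept their direction in every alternative run, which for the first of these includes shares taken per exon length, chosen after the data were seen. The mutant minus control difference changed sign when single libraries were left out for the leading kappa share (-0.18 to 1.52 percentage points), the lambda share (-6.0 to 0.375), the Ighv1 family share (-7.75 to 4.37) and V counts per 100 constant region counts (-2.90 to 0.669). These 4 did not separate the groups in the main test.

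By limma-voom, without and with separate variances, the log2 fold change was -3.77 and -3.79 for Ighv14-4, -0.62 and -0.61 for Ighv1-67, and -1.33 and -1.33 for Igkv3-3, against positive main values. With single libraries left out it ranged from -7.16 to 2.01 for Ighv14-4, -0.76 to 2.36 for Ighv1-67, -0.92 to 0.15 for Igkv3-4 and -4.27 to 3.70 for Igkv3-3. The cause was not tested. Of the 16 named segments that fell, all 16 still did with DESeq2 and 6 with separate variances. No paired analysis was possible because the labels give the animals of the groups no shared numbers. With 249 lambda counts in mutant 1, lambda usage there is imprecise.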

Other observations

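Igkv13-84 and Igkv13-85, 2 further kappa segments named after their values were seen, were above all controls in mutant 2 as well. Igkv13-85 was at 20.9 CPM there against at most 9.87 CPM in controls, and Igkv13-84 at 19.8 CPM against at most 10.2 CPM. The Igkv13 family held 8.42% of kappa counts in mutant 2, against 1.17 and 0.402% in mutants 1 and 3 and 0.822 ± 0.233% in controls (n = 3). In mutant 1, by contrast, 225 of the 230 segments were below all controls, against 187 in mutant 2 and 213 in mutant 3. How many of all genes did so in a single mutant was not counted.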
